A study of Mus musculus with 120 samples.

Results

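The Pfkl induction experiment followed mouse embryonic stem (mES) cells in which the coding sequence of Pfkl, the liver-type subunit of phosphofructokinase, could be switched on. Its arrays were those whose titles name the Pfkl clones, 3 uninduced and 3 induced, which makes 6 of the 120 arrays of the series, beside 108 arrays of 18 other genes on the same Mouse430_2 array type. The series profiled a bank of mES clones, each of which overexpressed a single gene of human chromosome 21 or its mouse ortholog. All clones derived from the EB3 line and carried the mouse Pfkl coding sequence with a 3 x FLAG tag and without untranslated regions, placed at the ROSA26 locus under a Tet-off promoter. The 3 uninduced cultures (0 hours) were kept in tetracycline (Tc) at 1 ug/ml, which holds the transgene off. The 3 induced cultures were the same 3 clones after Tc withdrawal. The labels give 24 hours of induction, while the study's list of induction times gives a later time for the Pfkl clones. Both states were grown with leukaemia inhibitory factor (LIF) and carried the same transgene. They differed in Tc and, by the study's methods, in handling. The cells to be induced were washed, kept for some hours in medium without Tc, trypsinized and plated anew. No such steps are described for the uninduced cultures. There was no clone without a transgene taken through Tc withdrawal, so the effect of withdrawal itself can be seen here only through the other 18 experiments on the same array. The 3 replicates were separate clones of 1 cell line, and p-values of the fit of the 6 arrays measure the spread between these clones. Fits that join experiments pool the spread over the clones of those experiments.

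Phosphofructokinase phosphorylates fructose 6-phosphate to fructose 1,6-bisphosphate, the committed and most tightly controlled step of glycolysis. The enzyme is a tetramer of liver (Pfkl), muscle (Pfkm) and platelet (Pfkp) subunits in proportions that depend on the tissue. Fructose 2,6-bisphosphate activates it and is made and removed by the Pfkfb enzymes, while the fructose bisphosphatases Fbp1 and Fbp2 catalyse the opposite reaction in gluconeogenesis. Glycolysis is a major source of energy in pluripotent stem cells, and Pfkl lies in the segment of mouse chromosome 10 that matches the end of human chromosome 21.

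The designed primers show what was inserted and what was counted as Pfkl mRNA by q-PCR, and they are printed for that reason. Capitals mark the start codon in the forward cloning primer, which follows a tail of 8 bases with the AscI site, and in both reverse primers the stretch that the pair shares.
Pfkl cloning forward primer: ggcgcgccATGgctaccgtggacctggaga
Pfkl cloning reverse primer: ttaattaaTTCTGTGACCGGACTGAAGGCC
Pfkl q-PCR forward primer: gagaagctacgtgtctacc
Pfkl q-PCR reverse primer: TTCTGTGACCGGACTGAAGGCC
The q-PCR reverse primer was identical over all of its 22 bases to the gene-specific part of the cloning reverse primer, so the insert ended in the q-PCR primer site. The endogenous gene lies on chromosome 10 from 77986947 to 78009807 (GRCm38.p6). The array reads Pfkl through 3 probe sets whose position relative to the cloned coding sequence was not checked, and a probe set outside that sequence would report the endogenous mRNA alone.

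The induced clone 1 array stood apart from the rest, and results that rest on it are given with and without it. The probe set for the 3' end of 18S ribosomal RNA, a control for carry-over of ribosomal RNA, had a log2 level of 12.46 on that array. The uninduced arrays of clones 1, 2 and 3 had 6.50, 6.77 and 8.29, and the induced arrays of clones 2 and 3 had 6.32 and 6.79. The other 113 arrays of this type lay between 5.67 and 9.36, a range that spans experiments normalized apart from each other and so serves only as a rough guide. With the same limit, the array was also the highest for the middle of 18S, at 11.39 against 5.05 to 8.17 on the other 113. It ranked 5 for the 5' end of 18S, at 11.22 against 4.38 to 11.59 on the other 113. The excess of the 3' end over the 5' end of beta-actin mRNA, which grows when RNA is degraded or copied in part, was 1.28 on this array against 0.129 to 0.618 on the other 113. The same excess was 2.81 for the transferrin receptor (1.09 to 2.43 elsewhere) and 0.235 for Gapdh (-0.069 to 0.175 elsewhere). All 3 control transcripts therefore placed this array beyond every other array. Its correlation with the other 5 Pfkl arrays over all probe sets was 0.983 to 0.987, while pairs among those 5 reached 0.992 to 0.997. The standard deviation of the induced minus uninduced change over all probe sets was 0.397 in clone 1, the highest of the 57 clones of the 19 experiments, against 0.206 in clone 2 and 0.278 in clone 3. Changes above 1 on the log2 scale in either direction numbered 1170 in clone 1, 36 in clone 2 and 288 in clone 3. Across probe sets, which are not independent replicates, the changes of clones 2 and 3 correlated with r = 0.317, and those of clone 1 with r = -0.065 and -0.194 against clones 2 and 3. The part of RNA quality in the changes of clone 1 was not tested.

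**Figure D1:**
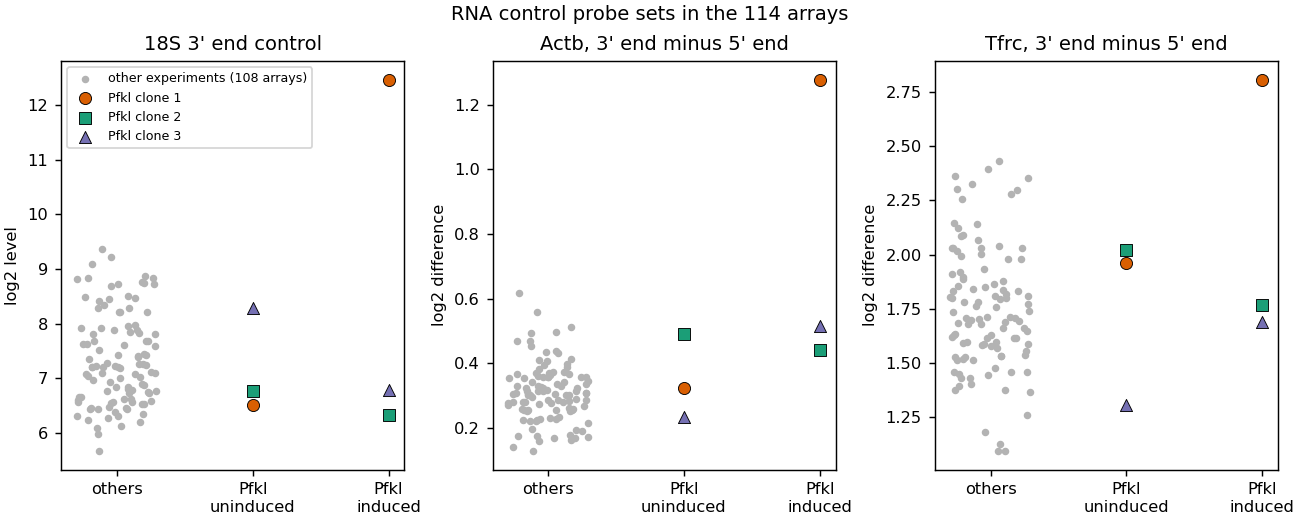
RNA controls on the 6 Pfkl arrays (coloured points) and on the other arrays of the same type (grey points), with the log2 level or the log2 difference of 3' and 5' ends on the y axis. The induced clone 1 array lies at 12.46 for the 18S 3' end and at 1.28 for the beta-actin excess, above every other array in both, where experiments were normalized apart.

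Pfkl itself was higher after Tc withdrawal in clones 2 and 3 and not in clone 1. The probe set 1450269_a_at had log2 levels of 10.14, 10.42 and 9.79 in uninduced clones 1, 2 and 3, and of 9.98, 11.20 and 11.03 in the same clones after induction. Induced clones 2 and 3 lay above every uninduced array, and induced clone 1 lay inside the uninduced range. The mean was 10.12 ± 0.32 uninduced and 10.74 ± 0.66 induced (SD, n = 3), a difference of 0.62 (SE 0.26), which is a ratio of 1.54. Its unadjusted p was 0.0605 and its adjusted p over all 45101 probe sets 0.933 by limma with the clone as a block, so the difference did not pass the threshold. Without clone 1 the difference was 1.01, a ratio of 2.02, and the limma adjusted p was 0.216. In a single fit over the within-clone changes of all 19 experiments, in which the spread is estimated from many more clones, the limma adjusted p was 0.061 with clone 1 and 0.0087 without it. The latter fit, chosen after the values were seen, was the only setting in which a Pfkl probe set passed.

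The other 2 Pfkl probe sets were less uniform. The probe set 1439148_a_at changed by -0.34, 0.07 and 1.07 in clones 1, 2 and 3, with a mean of 0.27 (SE 0.27, unadjusted p = 0.361). Without clone 1 its mean was 0.57 (unadjusted p = 0.0354). Its size thus rested on clone 3, and without that clone the mean was -0.14. The dim probe set 1453541_at changed by 0.22, 0.10 and -0.37, with a mean of -0.02, and gave no common direction.

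With all 3 clones the size of the Pfkl difference was inside the range of the other experiments, in none of which Pfkl was the transgene. Without clone 1 it was above that range for 1450269_a_at only. For 1450269_a_at the mean change of the other 18 experiments was 0.24 and ran from -0.31 to 0.77, with 16 of 18 above 0. The Pfkl experiment with 0.62 ranked 2 of 19, after the Pdxk experiment with 0.77, while without clone 1 its 1.01 exceeded all 18. The difference between the Pfkl experiment and the mean of the other 18 was 0.38, with an adjusted p of 0.413 by limma, and without clone 1 it was 0.77, with an adjusted p of 0.0882. For 1439148_a_at the other experiments averaged 0.26, and the Pfkl experiment ranked 9 of 19. Without clone 1 its 0.57 was still below the 0.79 of the Pdxk experiment. In neither probe set did the Pfkl experiment differ from the others at the threshold.

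**Figure D2:**
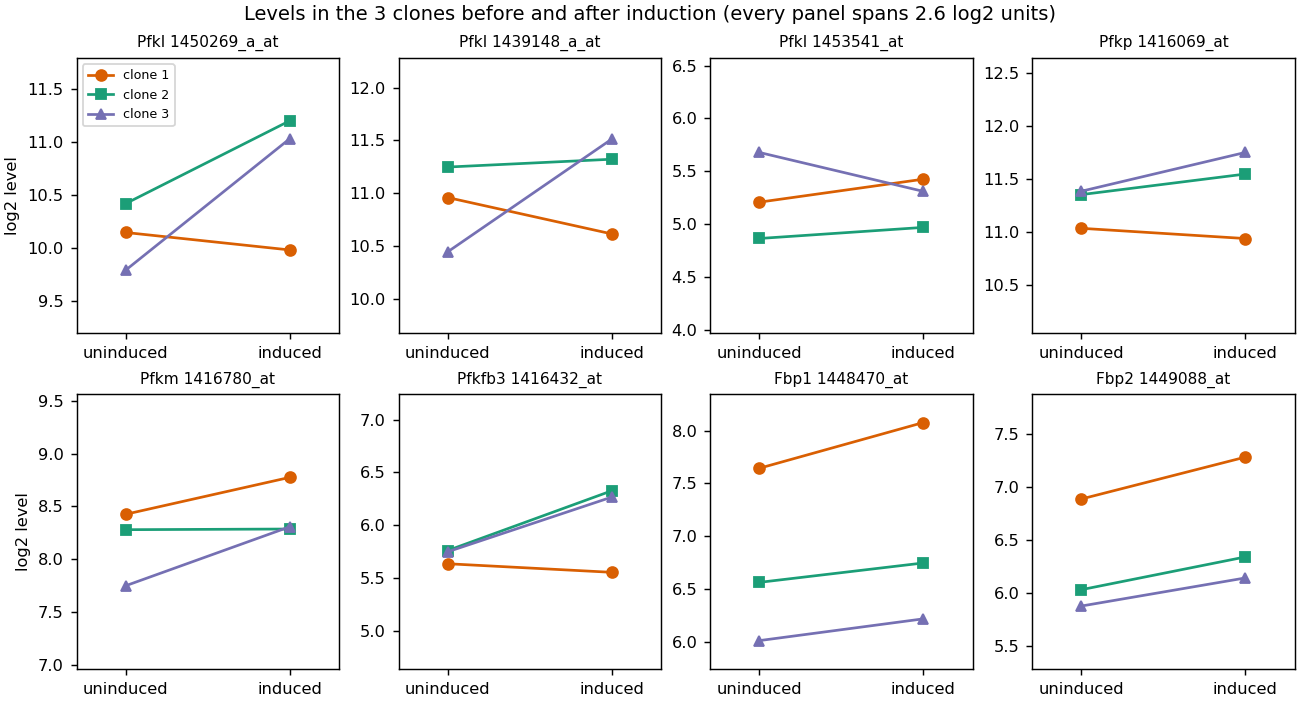
Log2 levels of phosphofructokinase genes, of Pfkfb3 and of the fructose bisphosphatases in the 3 clones (coloured lines) before and after induction, with every panel spanning the same range. Pfkl 1450269_a_at goes up in clones 2 and 3 and from 10.14 to 9.98 in clone 1, and Fbp1 and Fbp2 are highest in clone 1 in both states.

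The other subunits and the enzymes that set fructose 2,6-bisphosphate showed small differences, none of which passed the adjusted threshold. Pfkm had levels of 8.43, 8.28 and 7.75 uninduced and 8.77, 8.29 and 8.31 induced, a mean difference of 0.30 (SE 0.14, unadjusted p = 0.0685). It was higher in all 3 clones, although by 0.01 only in clone 2. The probe set 1416069_at of Pfkp changed by -0.10, 0.19 and 0.37, with a mean of 0.16 and, without clone 1, of 0.28. A second Pfkp probe set, 1430634_a_at, changed by -1.46 in clone 1 and by 0.28 and 0.09 in the other clones, so its sign rested on the induced clone 1 array. Another, 1437759_at, had a mean change of -0.20, and the 3 probe sets of this gene did not share a direction. Pfkfb3, the kinase form that raises fructose 2,6-bisphosphate, stood at 5.64, 5.76 and 5.75 uninduced and at 5.55, 6.33 and 6.27 induced by its probe set 1416432_at. Its mean difference was 0.33 (unadjusted p = 0.080), and 0.54 without clone 1 (unadjusted p = 0.0017). The same probe set was higher in all of the other 18 experiments, by 0.49 on average and by 1.30 in the Pdxk experiment, and the Pfkl experiment ranked 11 of 19. The other Pfkfb3 probe set, 1456676_a_at, had a mean change of 0.03 and ranked 13 of 19.

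Fructose bisphosphatases were higher in each clone. Fbp1 had 7.64, 6.56 and 6.01 uninduced and 8.08, 6.75 and 6.22 induced, a mean difference of 0.27 (SE 0.11, unadjusted p = 0.0451). Fbp2 had 6.89, 6.03 and 5.87 uninduced and 7.28, 6.34 and 6.14 induced, a mean difference of 0.32 (SE 0.10, unadjusted p = 0.0181). In both genes the difference between clone 1 and the other clones was larger than the difference between states, and the groups overlapped unless read within a clone. Of the 4 Pfkfb2 probe sets the dim 1422090_a_at was higher by 0.33 (unadjusted p = 0.0162), and the other 3 had mean changes of -0.15, -0.13 and 0.06. Pfkfb4, another bifunctional enzyme of the family, had a mean change of 0.13, and 0.28 without clone 1. Tigar, which removes fructose 2,6-bisphosphate, had mean changes of 0.03, 0.17 and -0.11 in its 3 probe sets. With 1 probe set per gene, 9 of the 10 genes of this group were measured. Of these, 2 were higher and 0 lower at an unadjusted p under 0.05, where over all 18194 genes 726 (3.99%) were higher and 197 (1.08%) lower. The median change of the group was 0.27, which was the value of Pfkl, against 0.02 over all genes. By clone the median was -0.08, 0.18 and 0.36. Higher values in all 3 clones were found in 3 of the 9 genes (16.8% of all genes), and lower values in all 3 in 1 (9.9% of all genes). Leaving out clone 1, 7 of the 9 were higher in both remaining clones, against 33% of all genes. At an unadjusted p under 0.05, 5 were higher, against 8.72% of all genes, and Pfkl was among both the 7 and the 5. The corresponding share of lower genes was 3.5% over all genes and 0 of 9 here. The group rested on clone 3: without that clone its median was 0.049 with 0 genes higher at this p, and without clone 2 it was 0.22 with 1 gene higher.

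Over the whole array no probe set passed an adjusted p of 0.05 in the limma fit of the 6 arrays, 0 of 45101 (0%). At an unadjusted p under 0.05 there were 2427, and the smallest adjusted p was 0.870. The methods' t-test gave 0 (2095 unadjusted), a Bayesian regularized test like Cyber-t 0 (2199 unadjusted), and the limma fit with array weights 0 (7622 unadjusted). The weights were 0.36, 3.28 and 0.84 for both arrays of clones 1, 2 and 3, so that fit rested mostly on clone 2. Without clone 1 the limma fit gave 0 as well, with 5546 unadjusted. In the single fit over 19 experiments 527 probe sets (1.17%) passed, of which 253 were higher and 274 lower, and without Pfkl clone 1 the number was 147 (0.326%), of which 103 were higher and 44 lower. The fits shared 80 probe sets, and in 85 of the 147 the left-out clone 1 had moved in the direction of the other clones. Over all genes, with 1 probe set per gene, 6005 were higher in both clones 2 and 3, and 3051 of these in clone 1 too. In the other direction 5234 were lower in both, and 1801 of these in clone 1 too. The counts of that fit thus differed with and without Pfkl clone 1. Leaving out a clone also lowers the number of Pfkl clones, and the fit was not repeated with another clone left out. The part of the array that stood apart in this difference was therefore not tested.

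The gene with the smallest p among those higher in every clone was Gt(ROSA)26Sor, the noncoding RNA of the locus that carries the transgene, on chromosome 6 from 113067428 to 113077244 (GRCm38.p6). Its levels were 6.64, 6.54 and 6.70 uninduced and 7.28, 7.56 and 7.63 induced. All induced arrays lay above all uninduced ones, with a gap larger than the spread in either state. The difference was 0.86 (SE 0.12, unadjusted p = 0.000453, limma adjusted p = 0.870), and 0.97 without clone 1. In the other 18 experiments, whose clones carry a transgene at the same locus, the mean change was 0.03, with a range of experiment means from -0.20 to 0.38. None of the 54 other clones exceeded the lowest Pfkl clone, as the highest of them reached 0.59. The difference from the other experiments was 0.83 (adjusted p = 0.0033 by limma) and 0.95 without clone 1 (adjusted p = 0.0095). The other measured genes of the locus, Thumpd3 and Setd5, had mean changes of -0.09 and -0.03.

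**Figure D3:**
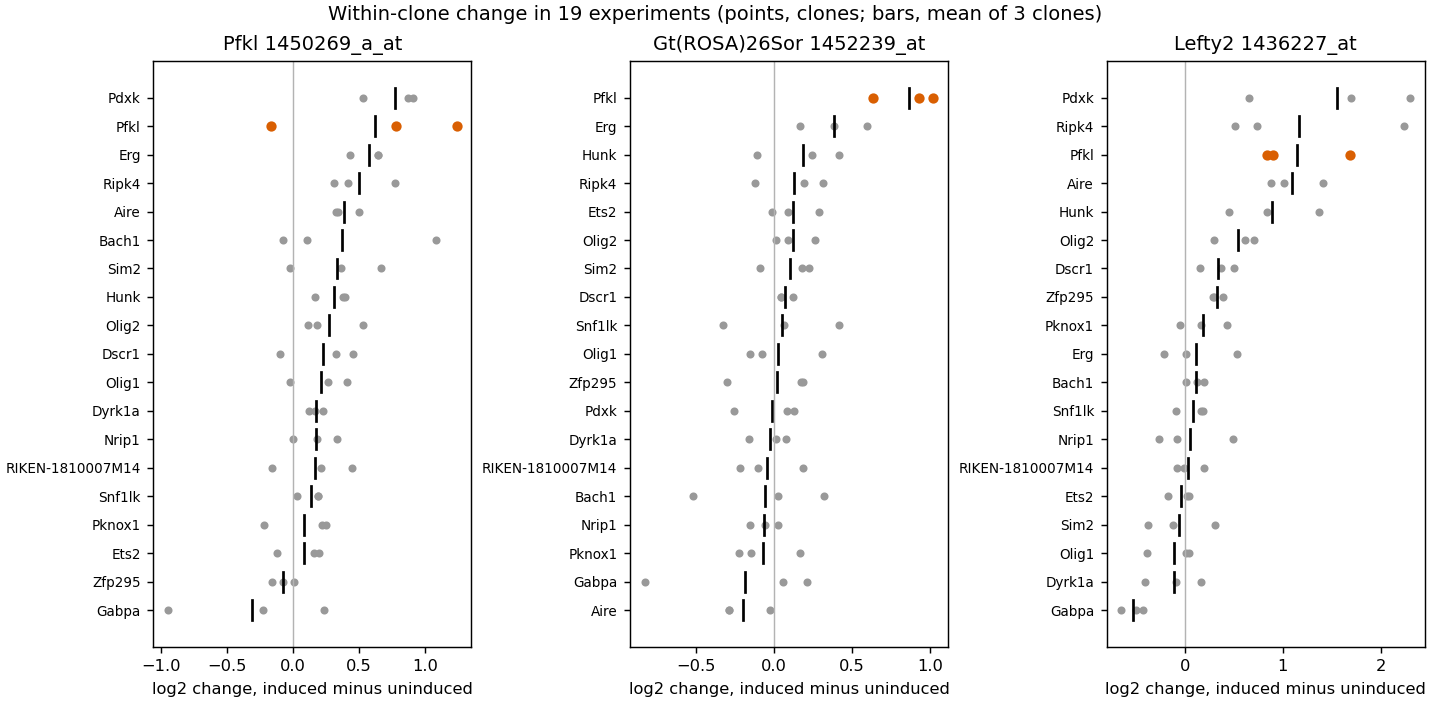
Mean change in log2 on Tc withdrawal in each of the 19 experiments (bars) and in its 3 clones (points) for Pfkl, Gt(ROSA)26Sor and Lefty2, with the Pfkl experiment in colour. Gt(ROSA)26Sor is highest in the Pfkl experiment with 0.86, whereas Pfkl 1450269_a_at at 0.62 follows the Pdxk experiment at 0.77.

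The other leading genes differed in function, and none passed the adjusted threshold in the 6 arrays. Those with the smallest p among the higher ones were Sema3e, a guidance ligand (0.70), Igdcc4, a membrane protein of the immunoglobulin superfamily (0.73), Siglecf, a sialic acid receptor (0.81), Yipf2, a Golgi membrane protein (0.66), and Selenop, which carries selenium (0.84). They were followed by Ank3, which anchors membrane proteins to spectrin (0.76), Fut9, a fucosyltransferase that makes the stage-specific antigen SSEA-1 (0.71), Klhl5 (0.71) and Adgrf5, an adhesion receptor (0.60). Sema3e changed by nearly the same amount in each clone, from 5.47, 5.89 and 5.84 to 6.13, 6.59 and 6.56. The lower genes by the same rule were Nisch (-0.74), the kinetochore gene Cenpp (-0.65), the imprinted noncoding RNA Kcnq1ot1 (-0.65), the ubiquitin ligase Mid1 (-0.61) and the splicing factor Luc7l2 (-0.62). The remaining ones were Krit1 (-0.58), Mtss1 (-0.68), the histone chaperone Rbbp4 (-0.60), Jmjd1c (-0.69) and Edem3 (-0.54). Unadjusted p-values of these 19 genes lay between 0.000417 (Nisch) and 0.00209 (Edem3). These genes were chosen among those that moved the same way in every clone. Their direction without clone 1 was therefore fixed by the choice and is not a test of that array.

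Among genes that moved the same way in all 3 clones, lay above the median probe set and had an unadjusted p under 0.05, the largest differences were those of Lefty2 and Lefty1, secreted inhibitors of Nodal signalling that mES cells express. Lefty2 had 6.73, 6.20 and 6.61 uninduced and 7.63, 7.04 and 8.30 induced, a difference of 1.14 (SE 0.19, unadjusted p = 0.00118). Lefty1 had 9.67, 8.41 and 9.18 uninduced and 10.20, 9.68 and 10.24 induced, a difference of 0.95 (SE 0.16, unadjusted p = 0.00138). The induced arrays exceeded the uninduced ones without overlap in both genes, although narrowly for Lefty1. The pair was also higher on average in the other experiments, by 0.31 and 0.28, with means up to 1.55 for Lefty2 and 1.81 for Lefty1 in single experiments. The Pfkl experiment ranked 3 and 5 of 19, and the differences from the other experiments had adjusted p-values of 0.061 and 0.36 by limma. Gm3715 (0.95) and Selenop (0.84) were next among the higher genes. The lower genes by size were Ing5 (-0.85), Rtn4 (-0.84), the chromatin remodeller Atrx (-0.84), the kinase gene Dyrk1a (-0.82) and Camk1d (-0.80). Each value is that of 1 probe set, the most extreme for its gene among those that met these conditions. Ing5 and Dyrk1a owed much of this to clone 1, in which they changed from 6.54 to 4.78 and from 7.49 to 5.88. Without clone 1 their means were -0.40 and -0.43, whereas Rtn4 kept -0.67, Atrx -0.77 and Camk1d -0.62.

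**Figure D4:**
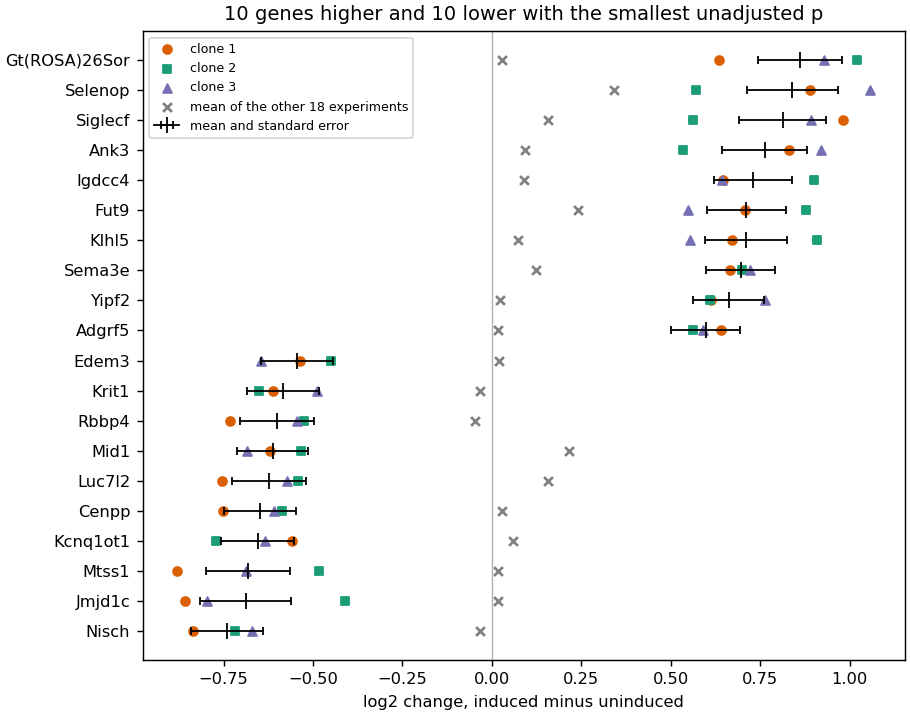
Changes in log2 of the leading higher and lower genes in clones 1, 2 and 3 (points), with the mean of the 3 clones and standard error as a bar and the mean of the other 18 experiments as a cross. Gt(ROSA)26Sor lies between 0.63 and 1.02 in the 3 clones, with the cross at 0.03.

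The pathway that Pfkl serves showed few differences. Of 17 measured glycolytic enzymes 1 was higher and 0 lower at an unadjusted p under 0.05 (3.99% and 1.08% over all genes), and their median change was 0.01. The gene was Aldoc, an aldolase, which cleaves the product of phosphofructokinase, with 7.10, 7.64 and 7.68 uninduced and 7.53, 7.94 and 8.46 induced, a difference of 0.50 (SE 0.13, unadjusted p = 0.00885). The hexokinases Hk1 and Hk2 had mean changes of 0.23 and 0.11, and Gapdh of -0.07. Glycolytic transcripts as a group thus stayed close to the median of all genes.

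Among 23 genes of hexose transport and the fate of pyruvate, 4 were higher and 0 lower at an unadjusted p under 0.05, and the median was 0.02. Over all genes 3.99% were higher and 1.08% lower at this threshold, which serves for the other lists too. Slc2a1, the glucose transporter GLUT1, had 11.84, 11.61 and 11.67 uninduced and 12.10, 12.09 and 12.13 induced, a difference of 0.40 (unadjusted p = 0.00964). All 3 induced arrays were above the highest uninduced array and within a narrow band. Pdk4 and Pdk1, kinases that inhibit pyruvate dehydrogenase, were higher by 0.63 and 0.29, and the hexose transporter Slc2a8 by 0.25. Pdk4 had 5.27, 4.74 and 4.92 uninduced and 5.83, 5.60 and 5.39 induced, again without overlap. Of 15 genes of gluconeogenesis and glycogen, 2 were higher and the median was 0.12. These were Pygb, a glycogen phosphorylase (0.57, and 0.76 without clone 1), and Pcx, pyruvate carboxylase (0.35). The pentose phosphate pathway had 0 of 12 in either direction and a median of 0.14, with 6 of 12 higher and 2 of 12 lower in all 3 clones (16.8% and 9.9% of all genes). Of 11 genes of hexosamine, fructose and mannose metabolism 1 was higher, Oga (0.31), which removes O-linked N-acetylglucosamine, and the median was -0.02. By clone that median was -0.27, 0.11 and 0.08, and it was 0.12 without clone 1, so its sign rested on clone 1. Of 13 genes that sense carbohydrate and energy, 2 were higher: Mlxipl, which encodes the glucose-responsive factor ChREBP (0.48), and Prkag2, a subunit of AMP-activated kinase (0.37). Their median was 0.12.

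Mitochondrial and lipid genes did not stand out at this threshold. The tricarboxylic acid cycle had 0 of 17 and the respiratory chain 0 of 26 genes at an unadjusted p under 0.05 in either direction, with medians of 0.03 and -0.01, or 0.05 and 0.0047 without clone 1. Fatty acid synthesis had 0 of 14 and a median of 0.13, but 7 of its 14 genes were higher in all 3 clones (16.8% of all genes). Without clone 1 its median was 0.26, and 5 of 14 were higher at an unadjusted p under 0.05 (8.72% of all genes).

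**Figure D5:**
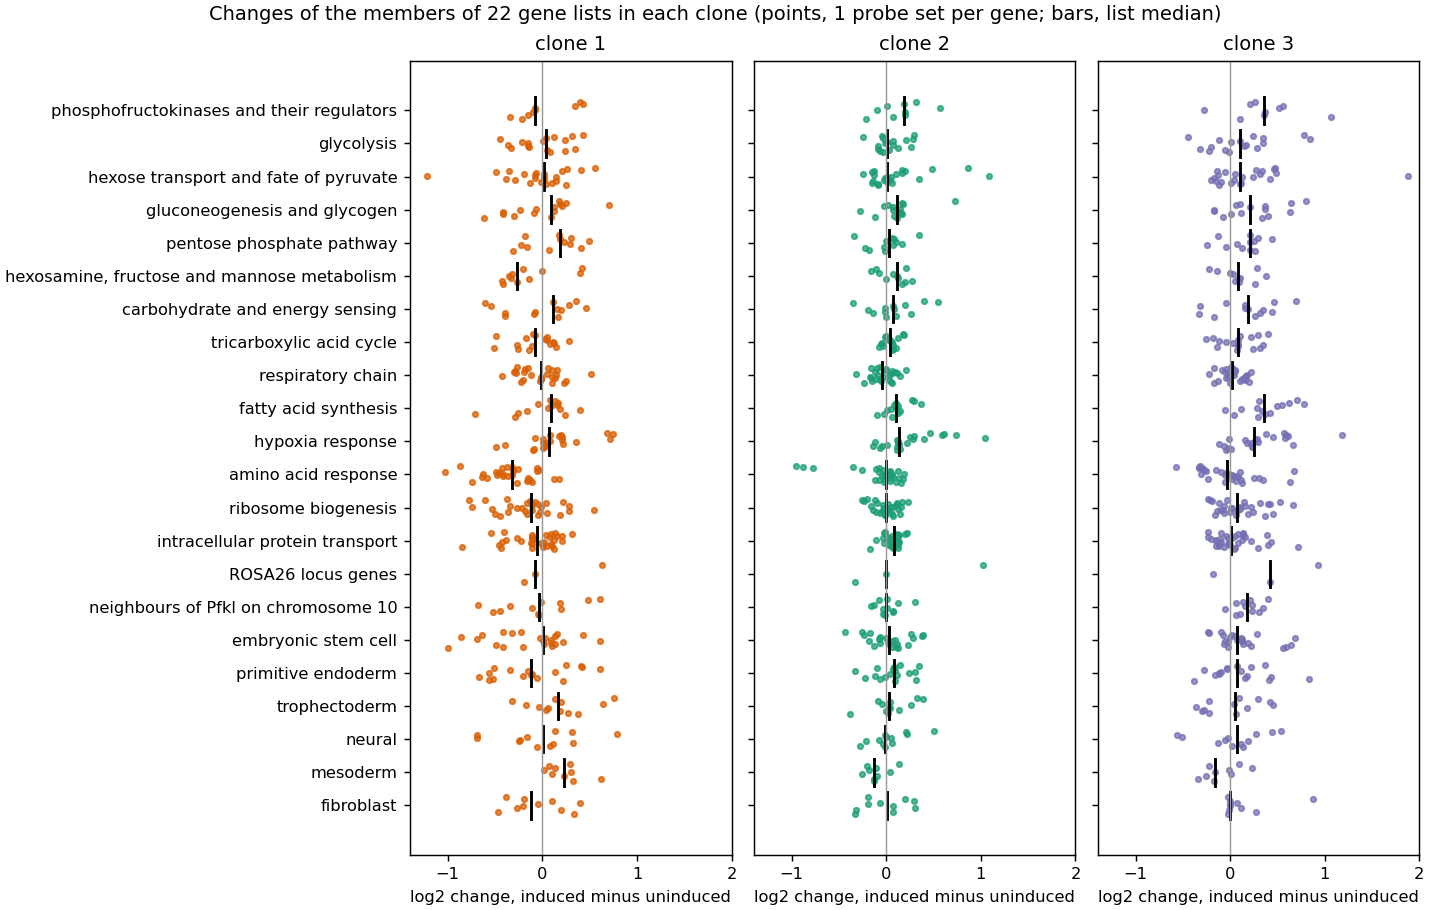
Changes in log2 of the members of 22 gene lists in clones 1, 2 and 3 (points, with 1 probe set per gene) and the list medians (bars). The medians of most lists lie near 0, that of the amino acid response is lower in clone 1 than in clones 2 and 3, and those of phosphofructokinases, fatty acid synthesis and the hypoxia response are highest in clone 3.

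The hypoxia response, whose targets include glucose transporters and glycolytic enzymes, had the most members at the unadjusted threshold. Of 22 measured genes 6 were higher and 0 lower at an unadjusted p under 0.05, and 11 were higher in all 3 clones (16.8% of all genes), with a median of 0.16. Bnip3, a mitochondrial autophagy receptor, had 9.45, 9.86 and 10.11 uninduced and 10.14, 10.31 and 10.68 induced, a difference of 0.57 (SE 0.10, unadjusted p = 0.00184). P4ha1, a collagen prolyl hydroxylase, had 7.64, 7.09 and 7.58 uninduced and 8.39, 7.70 and 7.96 induced, a difference of 0.58 (SE 0.12). The oxygen sensors Egln3 and Egln1 were higher by 0.71 and 0.30, Mxi1, an antagonist of Myc, by 0.42, and the mitochondrial gene Ndufa4l2 by 0.36. All 6 were higher in each clone, with the smallest steps in clone 1 for Egln3 (0.20) and Mxi1 (0.08). In the single fit over 19 experiments only Mxi1 passed among the 22 genes, with an adjusted p of 0.024 by limma, and 0.0099 without clone 1. The same list had a median change of 0.74 in the Pdxk experiment and of 0.20 over the other 18, and no member differed from the other experiments in the limma test.

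Genes of the amino acid response, which Atf4 drives when amino acids are short, had the most lower members of any list at the unadjusted threshold. Of 30 measured genes 3 were lower and 0 higher at an unadjusted p under 0.05 (1.08% and 3.99% of all genes), and 8 were lower in all 3 clones (9.9% of all genes). The median was -0.16 and, without clone 1, 0.0024, with 5 genes lower and 1 higher in that fit. Chac1, which degrades glutathione, had 9.91, 9.44 and 9.05 uninduced and 9.04, 8.48 and 8.73 induced, a difference of -0.71 (SE 0.15, unadjusted p = 0.0041). Trib3, a pseudokinase that Atf4 induces, had a difference of -0.41, and Atf4 itself of -0.53. Atf4 had 12.41, 11.90 and 11.85 uninduced and 12.03, 11.02 and 11.52 induced, and was lower within each clone while the states overlapped through clone 1. In the single fit over 19 experiments Atf4 had an adjusted p of 0.014 by limma, and 0.043 without clone 1. The median of the list was -0.40 in the Pdxk experiment and -0.11 over the other 18.

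The study listed ribosome biogenesis and intracellular protein transport among the terms it found for Pfkl on these samples, so counts for them are not independent evidence. Of 30 ribosome biogenesis genes 0 were higher and 1 was lower at an unadjusted p under 0.05, Utp18 of the small subunit processome (-0.27), and 6 were lower in all 3 clones (9.9% of all genes). Of 34 genes of intracellular protein transport 0 were at that threshold in either direction, and 7 were higher and 4 lower in all 3 clones (16.8% and 9.9% of all genes). The medians were -0.02 and 0.01, or 0.01 and 0.03 without clone 1.

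The cells kept the markers of mES cells. All 23 measured markers were above the median probe set of the 6 arrays, and their mean level was 11.23 to 11.34 in the uninduced and 11.10 to 11.37 in the induced arrays. Of these, 0 were higher and 2 lower at an unadjusted p under 0.05 (3.99% and 1.08% of all genes): Lin28a, an RNA-binding protein (-0.32), and Nanog, a core pluripotency factor (-0.24). Without clone 1 the counts turned to 4 higher and 0 lower (8.72% and 3.5% of all genes). Sox2 had a mean change of 0.23 and Pou5f1, which encodes Oct4, of -0.31, the latter through clone 1, where it went from 13.13 to 12.27 while clones 2 and 3 had 12.98 and 12.84 uninduced and 12.91 and 12.84 induced.

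Clone 1 differed from clones 2 and 3 in markers of other cell types before induction. Primitive endoderm is the extraembryonic lineage that lays down basement membrane and can arise in mES cultures. The mean level of its 17 markers was 6.86 in uninduced clone 1 against 5.96 and 5.93 in clones 2 and 3, and 6.76, 6.01 and 6.02 in the induced arrays. Of the 17 markers 16 were highest in clone 1 among the uninduced arrays, where 33.7% of all genes were. Col4a1, a basement membrane collagen, had 9.10, 6.57 and 5.76 uninduced and 8.58, 6.51 and 6.60 induced. Col4a2 had 7.54, 5.32 and 5.27 uninduced, the endocytic receptor Cubn 7.03, 5.15 and 5.21, and Dab2 6.83, 5.34 and 5.03. Of the 12 trophectoderm markers 8 were highest in uninduced clone 1, where 33.7% of all genes were. The keratins Krt8 and Krt18 of that list were highest in clone 1. The neural factors Otx2 (5.09, 6.85 and 6.90 uninduced) and Pax6 (5.19, 6.70 and 7.05) were lowest in clone 1. The neural list had no such order as a whole, since 5 of its 12 markers were highest in uninduced clone 1. Fbp1 and Fbp2 had the same order of clones as Col4a1 in the uninduced arrays. In bulk RNA more cells of a type and more RNA per cell cannot be told apart, and the part of these clone differences in the response to induction was not tested.

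Between the states, few markers of other cell types were past an unadjusted p of 0.05, for which the shares over all genes were 3.99% higher and 1.08% lower. Of the 17 primitive endoderm markers 1 was higher, Lamb1 (0.26), and the median was -0.04. Of 12 trophectoderm markers 2 were higher, Tfap2c (0.39) and Ascl2 (0.27), and the median was 0.06. Of 12 neural markers 3 were higher, Neurod1 (0.43), Otx2 (0.39) and Map2 (0.32), 1 was lower, Pax6 (-0.42), and the median was -0.02. Mesoderm (9 genes) and fibroblast markers (10 genes) had 0 in either direction and medians of 0.01 and -0.03. The mesoderm median joined opposite clones, with 0.23, -0.13 and -0.16 in clones 1, 2 and 3. Without clone 1 the medians were 0.02 for primitive endoderm, -0.04 for trophectoderm, 0.0017 for neural, -0.12 for mesoderm and 0.02 for fibroblast markers. Of 12 neighbours of Pfkl on chromosome 10, 0 were at the threshold and the median was 0.02, and Pdxk among them changed by 0.34 (unadjusted p = 0.0586).

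The comparison with Pdxk set the Pfkl response beside that to another metabolic enzyme, pyridoxal kinase, which by the labels was induced for 48 hours, so that the times differed. No probe set passed in the difference of the 2 responses by limma, 0 of 45101 (0%), with 2452 at an unadjusted p under 0.05 and a smallest adjusted p of 0.422, or 0.0708 without Pfkl clone 1. By the rule for naming genes, those higher in Pfkl than in Pdxk were Ccn2, a target of Yap (0.42 against -0.50), Cyyr1 (0.50 against -0.42), the chromatin protein Hmga2 (0.21 against -0.58), Znf41-ps (0.21 against -0.99) and Gt(ROSA)26Sor (0.86 against -0.02). Those lower in Pfkl were Marchf7 (-0.50 against 0.45), Ndrg1 (0.32 against 1.44), Otx2 (0.39 against 1.46), Pgm1 (0.13 against 1.17) and Egln1 (0.30 against 1.17). Of these 5, all but Marchf7 were higher in both experiments, with the larger value in Pdxk.

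Against the mean of the other 18 experiments, 213 of 45100 probe sets (0.472%) differed at an adjusted p under 0.05 by limma, of which 85 were higher in Pfkl. Of the 213, 140 had 1 gene, and in 201 the 3 Pfkl clones moved the same way. Over all genes, with 1 probe set per gene, 16.8% were higher and 9.9% lower in all 3 clones. The calls were made on these same changes, so the 201 are not separate evidence that the clones moved alike. Without Pfkl clone 1 the count was 58 (0.129%), and 31 probe sets were in both. Most of these calls were thus lost without clone 1, while the count was 705 without clone 2 and 260 without clone 3. Without the clone as a block it was 3, and against only the experiments labelled 24 hours it was 715, of which 433 were higher and 282 lower, so the prevailing direction turned. The leading higher genes were Tenm3, a cell adhesion protein, with 0.82 in Pfkl and 0.13 elsewhere, Gt(ROSA)26Sor, Pip5k1b, a phosphoinositide kinase (0.49 against -0.04), Dpp4, a membrane peptidase (0.49 against -0.16), and Tbck (0.43 against -0.01). The leading lower genes were Bpnt1, a nucleotidase (-0.66 against 0.04), Rtn4 (-0.84 against 0.05), Pcyt1a of phosphatidylcholine synthesis (-0.51 against -0.06), Ankrd11 (-0.48 against -0.05) and Cenpp (-0.65 against 0.03). Bpnt1 had 8.78, 9.14 and 9.23 uninduced and 7.48, 8.83 and 8.85 induced, so the drop was much larger in clone 1. Dpp4 had 6.34, 7.15 and 6.41 uninduced and 6.56, 7.51 and 7.31 induced, with the smallest step in clone 1. Pip5k1b had 5.70, 6.06 and 6.12 uninduced and 6.18, 6.55 and 6.63 induced, nearly the same step in each clone. Of the 10 genes, 3 stayed under an adjusted p of 0.05 without clone 1: Gt(ROSA)26Sor, Dpp4 (0.0095) and Pip5k1b (0.0489).

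Clones 2 and 3 had further genes in common, which were chosen after their values were seen. In the single fit over 19 experiments without Pfkl clone 1, the higher genes with the smallest adjusted p were Ankrd6, a regulator of Wnt signalling, Trak1, which links mitochondria to motor proteins, Gt(ROSA)26Sor, the TNF receptor family gene Tnfrsf19, the oxidase gene Duox1, Arhgef15, Atxn2 and Pfkl. Ankrd6 had 7.43 and 7.04 uninduced and 8.17 and 7.96 induced in clones 2 and 3, and 6.94 and 7.19 in clone 1. Tnfrsf19 had 5.99 and 6.16 uninduced and 7.17 and 7.02 induced in clones 2 and 3, and 5.62 and 5.79 in clone 1. Atxn2 went up in clones 2 and 3, from 9.10 and 8.33 to 9.53 and 9.28, and from 8.78 down to 8.07 in clone 1. Among the lower genes were Ttc3, Cox8a, a subunit of cytochrome c oxidase, Selenok, the chaperone subunit gene Pfdn2, Rassf1 and the copper chaperone gene Atox1. Atox1 had 10.81 and 10.98 uninduced and 10.32 and 10.52 induced in clones 2 and 3, and 10.84 and 11.27 in clone 1. With clone 1 included, Ankrd6, Trak1 and Duox1 were higher than in the other 18 experiments, each with an adjusted p of 0.011 by limma. That comparison reuses the changes of clones 2 and 3 by which these genes were chosen, so it is not separate evidence.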

How the data were processed

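RNA of each clone was hybridised to Affymetrix Mouse430_2 arrays. The deposited values are log2 intensities that the authors made by the robust multi-array average (RMA), apparently on the 6 arrays of each gene together, so gene levels were compared only within an experiment. The 18S control levels were also set beside those of other experiments, which were normalized apart. Precision is limited by having 3 clones per state.

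The members and gene lists were chosen with earlier results of these data known. Limma 3.58.1 in R 4.3.3 fitted induced minus uninduced with the clone as a block, as the design text states that the same clones were profiled in both states. Deviations of same-numbered arrays correlated with r = 0.151, 0.387 and -0.026. Between different numbers r was 0.178 (uninduced clone 2 with induced clone 3), 0.140 (uninduced clone 3 with induced clone 1) and below 0 in the rest. The same-numbered value was thus clearly the highest for clone 2 only. Without this block 0 probe sets were called in the Pfkl induction and 3 in the difference from the other experiments. Benjamini-Hochberg adjustment ran over 45101 probe sets (45100 against the other experiments, as 1 value is missing). Differences between experiments were fitted on within-clone changes of 57 clones. Fits that join experiments use 1 spread per probe set for all their clones. Pfkl clone 1 had the widest changes of the 57, and such an unequal spread is not allowed for.

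GEO's platform annotation gave 34958 probe sets with 1 gene, 932 with several and 9211 with none. Lists (22) used 1 probe set per gene, that of the highest mean. Probe sets ending in _s_at or _x_at can bind related transcripts. Coordinates are from RefSeq. Named genes were all probe sets of the phosphofructokinase group, the 10 higher and 10 lower with the smallest p and the 5 and 5 with the largest change among genes moving the same way in all 3 clones above the median probe set (5.29), up to 4 members per list, and the 5 and 5 leading differences from Pdxk and from the other experiments. For genes named by p, change or difference, the probe set ranked first by that rule was taken. Other probe sets of those genes were not compared. On simulated data for the Pfkl induction, log2 changes of 0.5, 1 and 2 were recovered in 0%, 96.5% and 100% of the changed probe sets. At a change of 1, 33 unchanged probe sets were called as well. Simulated noise was independent between arrays with an equal spread on all 6, and changed probe sets lay at or above the median level. No simulated array stood apart as induced clone 1 did, so recovery on the real arrays can be lower. There Lefty2, with a difference of 1.14, had an adjusted p of 0.870 by limma. Python 3.11.15 with pandas 2.3.3, numpy 2.4.6 and matplotlib 3.10.9 served for tables and plots.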

Additional observations from a re-analysis of the deposited data

Results flagged for a closer look

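The log2 level of the 18S ribosomal RNA 3' end control on the induced clone 1 array, 12.46, was above the 6.32 to 8.29 of the other 5 Pfkl arrays. It was also above every other array of this type, although experiments were normalized apart.

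The response of the Pfkl clones differed from the mean response of the other 18 experiments in 213 probe sets by limma. The leading differences were higher by 0.69 for Tenm3, 0.83 for Gt(ROSA)26Sor, 0.54 for Pip5k1b, 0.65 for Dpp4 and 0.44 for Tbck on the log2 scale. They were -0.70 for Bpnt1, -0.89 for Rtn4, -0.44 for Pcyt1a, -0.44 for Ankrd11 and -0.68 for Cenpp. Without Pfkl clone 1 these 10 values were 0.51, 0.95, 0.54, 0.79, 0.43, -0.38, -0.72, -0.29, -0.38 and -0.63 in the same order. The part of RNA quality in the differences was not tested.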

How the results depend on the processing

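The count of 0 calls in the Pfkl induction held without the clone as a block, after a second quantile normalization, median centring, moderation with a trend and robust variances, the methods' t-test, the Cyber-t kind of test, without the dimmer probe sets, with array weights and without each clone. In a single fit over the 19 experiments it was 527, and 147 in the same fit without Pfkl clone 1, which was added after seeing the data, as were the array weights. Without the block the difference from the other experiments gave 3 calls instead of 213, with only the experiments labelled 24 hours 715, and without each Pfkl clone 58 to 705. The cause was not tested. The difference from Pdxk stayed at 0 calls.

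In the fit over 19 experiments without Pfkl clone 1, 1 of the Pfkl probe sets passed, 1450269_a_at with 1.01. Leaving out each clone gave 0.31 to 1.01 for that probe set, -0.14 to 0.57 for Pfkl 1439148_a_at and -0.13 to 0.16 for Pfkl 1453541_at. The latter was 0.012 after the second quantile normalization, 0.015 after centring and 0.026 with array weights. Signs also turned without 1 clone for Pfkfb2 1422092_at (-0.26 to 0.041), Pfkfb3 1456676_a_at (-0.091 to 0.14), Pfkp 1430634_a_at (-0.69 to 0.18), Pfkp 1437759_at (-0.38 to 0.0069), Tigar 1435929_at (-0.052 to 0.10), Tigar 1439859_at (-0.032 to 0.37) and Actb 1419734_at (-0.81 to 1.42). In the fit over 19 experiments without Pfkl clone 1, Pfkp 1430634_a_at was 0.18, Tigar 1439859_at -0.032 and Actb 1419734_at -0.81, and with array weights Pfkp 1430634_a_at was 0.10 and Actb 1419734_at -0.11.

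Over 96 results for named genes, 1048 of 1114 values under alternatives kept direction and side of the threshold, 36 passed only under an alternative, 18 no longer passed and 12 reversed. With 3 clones, simulated log2 changes of 0.5 were recovered in 0% of probe sets in the Pfkl induction, so differences of that size were not detectable at an adjusted p of 0.05.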
